A study of Danio rerio with 17 samples.

Results

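Immediate early genes are transcribed within a short time of neuronal firing or of another stimulus, before any new protein has to be made. A set of 8 of them was followed here, out of the 25432 genes counted: *fosab*, *egr1*, *egr3*, *egr4*, *npas4a*, *nr4a1*, *junba* and *ier2b*. They were chosen by name as genes that neuronal activity is known to induce, and the rule uses no measured value. Earlier results of these data were known when they were chosen. All 8 were found in the counts and passed the filter on low counts in every comparison of cell classes and ages. The data are single-cell RNA sequencing of the optic tectum, the main visual centre of the fish midbrain, with the torus longitudinalis attached. Barcodes with 600 to 4000 genes, at most 7500 unique molecular identifiers (UMIs, each marking 1 captured RNA molecule) and at most 10% mitochondrial UMIs were kept, which left 53173 of 87881 barcodes in 11 dissection batches.

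All larvae were of the wild-type TL strain. Batches 1, 2, 3, 4, 8, 11 and 12 came from larvae at 7 days post fertilization (dpf), and batches 5, 6, 7 and 10 from larvae at 6 dpf. A single line of the labels of batch 8 gives 6 dpf, and its age entry gives 7 dpf, which was used. Each batch pooled the tecta of several larvae, and the batches were dissected on different days, so the batch was the replicate and single animals cannot be told apart. Larvae were anaesthetized in tricaine, both tectal hemispheres were dissected, and cells were dissociated with papain. No transcription inhibitor is stated, and the study itself removed a list of 43 immediate early genes, 7 of these 8 among them (all but *egr3*), as genes that dissection and dissociation induce. There was no group without dissociation, so that transcripts made in the living animal and those made during the preparation cannot be told apart in any value below.

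In neurons, calcium entry and cAMP act through the transcription factors CREB, SRF and MEF2, which sit ready on the promoters of immediate early genes. Most of the proteins made are transcription factors themselves, and they switch on later genes whose products act at synapses, in secretion and in growth. Antibodies and probes for Fos and Egr1 are widely used to find neurons that were recently active, and the same genes respond to growth factors, stress and enzymatic dissociation in many other cell types.

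The members have different roles. *fosab* (ENSDARG00000031683) encodes a Fos protein and *junba* (ENSDARG00000074378) a JunB protein, which bind each other as the AP-1 complex. *egr1* (ENSDARG00000037421), *egr3* (ENSDARG00000089156) and *egr4* (ENSDARG00000077799) encode zinc finger factors that bind GC-rich sites. *npas4a* (ENSDARG00000055752) encodes a bHLH-PAS factor that in mouse neurons responds to calcium and shapes inhibitory synapses. *nr4a1* (ENSDARG00000000796) encodes an orphan nuclear receptor, and *ier2b* (ENSDARG00000086881) a small nuclear protein of the Ier2 family.

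Barcodes were assigned to a class where they held a UMI of the markers of exactly 1 class. The gad1b class (inhibitory neurons, 10685 barcodes) and the slc17a6 class (excitatory neurons, *slc17a6a* or *slc17a6b*, 10813 barcodes) were together called neurons. The other classes were mki67 (cycling progenitors, 1381 barcodes), cx43 (radial glia, 1919) and olig2 or sox10 (oligodendrocyte lineage, 618). No class marker was found in 22417 barcodes, and 5340 held markers of several classes. Other markers went with the labels in most checks. Against neurons, all tested cycling markers were higher in the mki67 class, all 5 tested radial glia markers in the cx43 class and all 6 tested oligodendrocyte markers in the olig2 or sox10 class, although *mbpa* and *mpz*, genes of myelin, were found in only 1.46% and 1.78% of olig2 or sox10 barcodes. The inhibitory markers *gad2*, *slc32a1*, *gad1a* and *slc6a1b* summed to 36.2 UMIs per 10000 in gad1b barcodes, against 4.86 in slc17a6 barcodes. They also summed to 28.7 in cx43 barcodes, so this list separated the neuron classes but not gad1b from cx43 barcodes. In olig2 or sox10 barcodes the radial glia markers summed to 42.1, against 6.06 in neurons and 171 in cx43 barcodes. Oligodendrocyte markers summed to 15.5 in olig2 or sox10 barcodes, less than the radial glia markers there. Batches held 5073733 to 88294858 UMIs, the median depth of kept barcodes was 1478.5 to 3162 UMIs per library, and the 66 pairs of libraries shared 344 kept barcode sequences in all, at most 35 in a pair.

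The UMIs of the members were spread over many cells. Among all kept barcodes, *fosab* was found in 56.4%, *egr4* in 31.8%, *npas4a* in 30.2%, *ier2b* in 24.5%, *nr4a1* in 17.3%, *junba* in 15.8%, *egr1* in 15.5% and *egr3* in 3.60%. Of the barcodes with a member, those with 1 UMI of it made up 40.6% for *fosab*, 49.1% for *npas4a* and 55.5 to 71.8% for the other 6. After each neuron was thinned to 1000 UMIs, the variance of *fosab* counts was 4.08 ± 1.52 times their mean (SD, n = 11 batches). The same ratio was 2.88 ± 1.41 for *egr4*, 2.38 ± 0.79 for *ier2b* and 1.26 ± 0.23 for *egr3* (n = 10 for *egr3*), where 1 is the value for counts spread at random over cells of equal level.

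Free RNA of broken cells gives UMIs in barcodes that do not express a gene, and red blood cells were used as its gauge. In neurons (median depth 2520 UMIs) *fosab* was found in 60.8%, *npas4a* in 38.4%, *egr4* in 37.9% and *ier2b* in 29.3% of barcodes. In 123 erythrocyte barcodes (at least 10% globin UMIs, median depth 2345 UMIs) the share was 30.1% for *fosab* (exact binomial 95% interval 22.1 to 39.0%), 7.32% for *npas4a* (3.40 to 13.4%), 11.4% for *egr4* (6.36 to 18.4%) and 8.94% for *ier2b* (4.55 to 15.4%). The intervals of neurons and erythrocyte barcodes did not overlap for these 4 genes. *nr4a1*, *egr1* and *junba* were also above the erythrocyte interval in neurons as counted, with shares of 21.0%, 17.0% and 14.04%. After thinning to 1000 UMIs the intervals of neurons and erythrocyte barcodes overlapped for these 3 genes. *nr4a1* was found in 10.5% of neurons (10.1 to 10.9%), against 4.92% of erythrocyte barcodes (1.83 to 10.4%), *egr1* in 8.08% of neurons (7.71 to 8.47%), against 3.28% (0.900 to 8.18%), and *junba* in 6.52% of neurons (6.18 to 6.87%), against 4.098% of erythrocyte barcodes (1.34 to 9.31%). For *egr3* the intervals overlapped in both counts, with 4.71% of neurons, against 2.44% of erythrocyte barcodes (0.506 to 6.96%), and with thinning 2.19% of neurons, against 0 of 122 erythrocyte barcodes, which allows up to 2.46%. A share of *egr3* barcodes in pooled neurons was therefore not distinguishable from free RNA at this depth. The difference of *egr3* between neuron classes, given below, is a comparison within batches, and the part of free RNA in it was not tested. The intervals cover counting error only.

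Levels were computed per batch as UMIs of the gene per 10000 UMIs of the class. The 8 members summed to 12.9 per 10000 in the neurons of batch 5 and 35.9 in those of batch 4, with a median of 22.4 over 11 batches. The spread of the batches, as the coefficient of variation in neurons, was 24.6% for *egr1*, 29.0% for *fosab*, 37.1% for *ier2b*, 39.4% for *nr4a1*, 45.9% for *npas4a*, 47.0% for *junba*, 58.4% for *egr3* and 67.8% for *egr4*. Heat shock and chaperone genes of a list of 19, which mark cell stress, ranged over the same batches from 28.7 per 10000 in batch 12 to 174 in batch 4. Batches 1 to 8 and batches 10 to 12 were sequenced on different instruments, which cannot be told apart from other differences between these batches. The libraries of batch 11, which was loaded on 2 lanes, gave neuronal *fosab* levels of 7.45 and 7.71 and *npas4a* levels of 4.73 and 5.00. The labels give 2 lanes for batches 5, 6 and 8 too, but their counts formed 1 library each and were not split by lane.

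**Figure D1:**
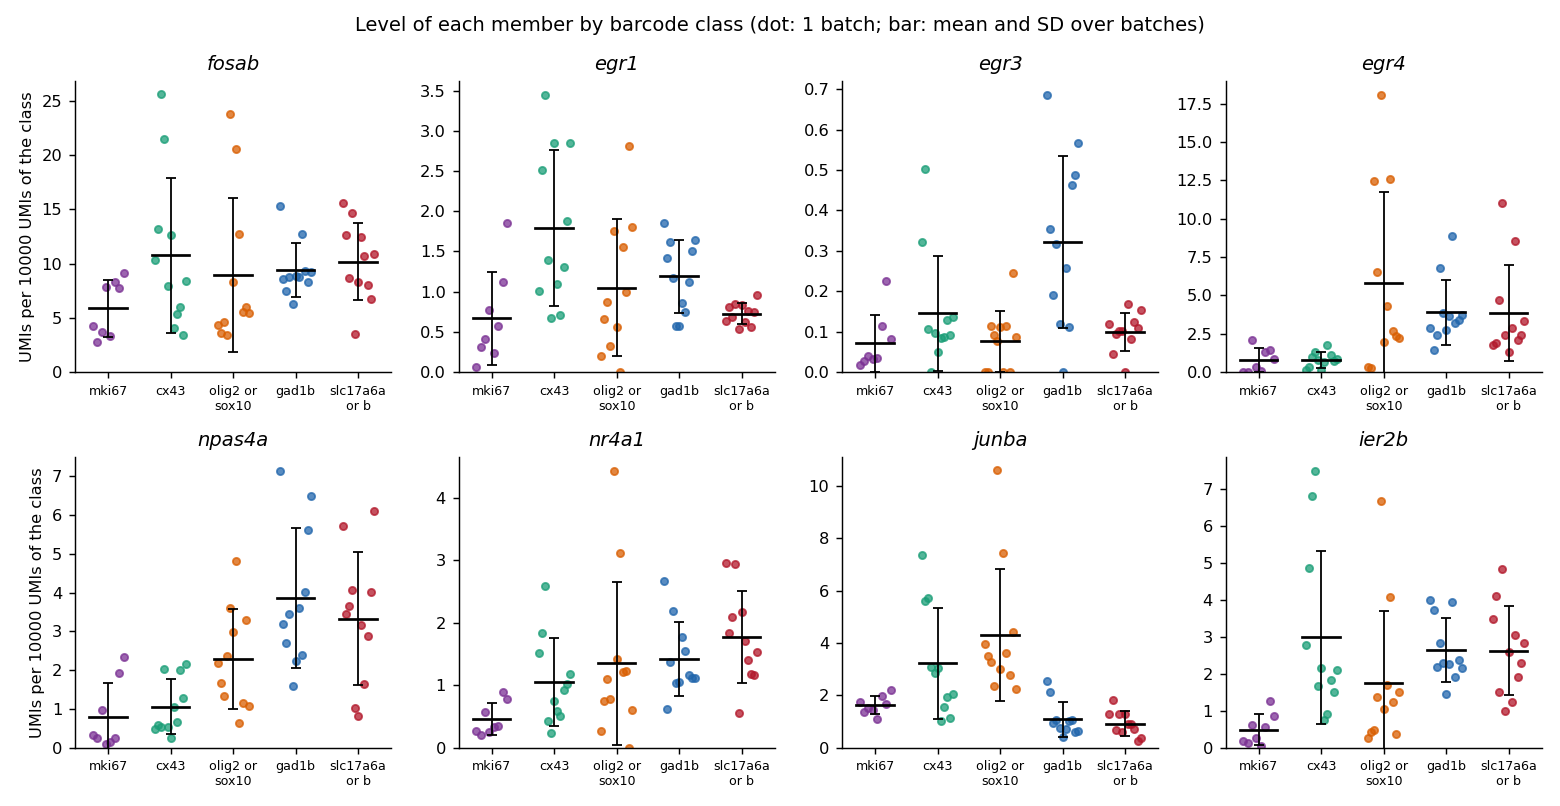
Level of each of the 8 genes (UMIs per 10000 UMIs, vertical axes) in the 5 classes, 1 point per batch with at least 20 barcodes, with the mean and SD over batches. *junba* lies higher in the mki67, cx43 and olig2 or sox10 classes than in the 2 neuron classes, *egr4* and *npas4a* lie lower in the mki67 and cx43 classes, and *egr3* lies highest in the gad1b class.

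The first comparison asked whether inhibitory and excitatory neurons carried different amounts of these transcripts. *egr3* was the only member called: in gad1b barcodes its level was 0 at the lowest (batch 6), 0.316 at the median and 0.686 at the highest (batch 1), against 0, 0.102 and 0.168 in slc17a6 barcodes, UMIs per 10000 over 11 batches each. It was higher in the gad1b class in 10 of 11 batches, and in batch 6 no *egr3* UMI was found in 124 gad1b or 102 slc17a6 barcodes, which allows shares of up to 2.42% and 2.94%. The groups overlapped between batches. The log2 fold change of gad1b over slc17a6 was 1.54 ± 0.28 (SE), a 2.91-fold difference, with an adjusted p of 9.52e-05 by edgeR's quasi-likelihood test. Of the 9428 genes tested, 5.41% were called at an adjusted p under 0.05, and of the 8 members 1. In batches 1 to 8 alone, a restriction chosen after the data had been seen, *egr3* failed the filter on low counts and was not tested.

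The other 7 members were not called between the neuron classes. *egr1* was higher in gad1b barcodes in 9 of 11 batches, with a level of 0.570, 1.17 and 1.86 at the lowest, median and highest, against 0.533, 0.741 and 0.959 in slc17a6 barcodes. Its log2 fold change was 0.66 ± 0.28 (edgeR unadjusted p = 0.0232, adjusted p = 0.245). *fosab* averaged 9.42 ± 2.51 in gad1b and 10.2 ± 3.58 in slc17a6 barcodes (SD, n = 11 each), with a log2 fold change of -0.11 ± 0.30. *npas4a* (0.23 ± 0.26), *egr4* (0.19 ± 0.30), *ier2b* (0.02 ± 0.35), *junba* (0.26 ± 0.27) and *nr4a1* (-0.28 ± 0.31) also had changes within about 1 SE of 0. With SEs of 0.26 to 0.35 on the log2 scale, equal levels were not shown either.

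Some other genes of the pathway lists differed between the neuron classes, in both directions, where 5.41% of all 9428 genes tested were called. Of 18 tested activity-regulated effector genes, 1 was higher and 3 were lower: *penkb*, a proenkephalin gene, had a log2 fold change of 2.82 ± 0.26, whereas *nrn1a* (neuritin, -2.20 ± 0.26), *nptx1l* (-1.19 ± 0.24) and *nptx2a* (-1.03 ± 0.25), genes of secreted synaptic proteins, were lower. Of 33 other genes of the study's list, *egr2b*, a further Egr factor, was higher (1.09 ± 0.33) and *bdnf*, a neurotrophin gene, was lower (-1.65 ± 0.19). Keratins of the epidermis list stood higher in the gad1b class too (*krt4* 2.22 ± 0.54, *krt5* 1.82 ± 0.51), with 0.712 summed UMIs of the list per 10000 in gad1b, against 0.301 in slc17a6 barcodes. Their part in the result was not tested.

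**Figure D2:**
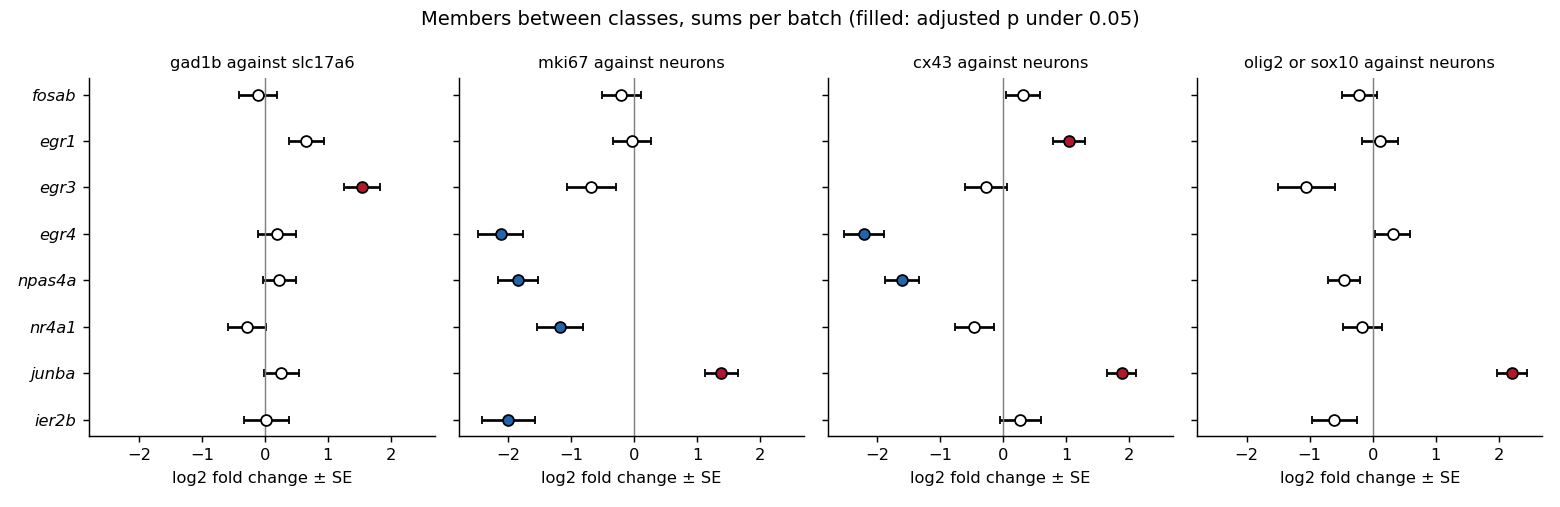
Log2 fold change with its SE for the 8 genes in 4 comparisons of classes (gad1b over slc17a6; mki67, cx43 and olig2 or sox10 over neurons). Filled points passed an adjusted p of 0.05 by edgeR's quasi-likelihood test: *egr3* in the first comparison, *junba* on the higher side in the other 3, *egr1* on the higher side in cx43 barcodes, *egr4* and *npas4a* on the lower side in mki67 and cx43 barcodes, and *nr4a1* and *ier2b* on the lower side in mki67 barcodes.

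Cycling progenitors held less of 4 of the 8 members than neurons did, and more of 1. In mki67 barcodes (8 batches with at least 20 of them), *egr4* had a level of 0.0281, 0.592 and 2.08 at the lowest, median and highest, against 1.73, 3.08 and 9.78 in neurons (11 batches), and it was lower in all 8 batches. *ier2b* had 0.0507, 0.414 and 1.26 in mki67 barcodes, against 1.62, 2.33 and 4.24 in neurons, and the ranges did not overlap. *npas4a* had 0.0971, 0.290 and 2.34 in mki67 barcodes, against 1.29, 3.42 and 6.33 in neurons. The log2 fold changes were -2.12 ± 0.36 for *egr4*, -1.996 ± 0.42 for *ier2b*, -1.84 ± 0.31 for *npas4a* and -1.17 ± 0.36 for *nr4a1*, with edgeR adjusted p of 1.91e-06, 8.26e-05, 2.14e-06 and 0.00529. After thinning, these 4 genes were found in 7.18% ± 6.24, 4.32% ± 3.71, 6.90% ± 7.601 and 3.39% ± 2.54 of mki67 barcodes (SD, n = 8). These means lie within the intervals of the erythrocyte barcodes, but batches differed: *egr4* was found in 14.4% of mki67 barcodes in batch 10 and *npas4a* in 21.7% in batch 12. The erythrocyte upper limits of 8.18% and 7.02% pool barcodes of 9 batches, so they cannot gauge the free RNA of a single batch. In all kept barcodes, too, the *npas4a* level was highest in batch 12 (5.63 per 10000).

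*junba* went the other way. It had a level of 1.098, 1.59 and 2.21 in mki67 barcodes, against 0.449, 0.809 and 1.94 in neurons, was higher in 7 of 8 batches and had a log2 fold change of 1.38 ± 0.26 (edgeR adjusted p = 1.23e-05). *fosab* (-0.20 ± 0.31), *egr1* (-0.03 ± 0.31) and *egr3* (-0.68 ± 0.40) were not called. In all, 5 of 8 members were called, where 54.2% of the 9428 genes tested were, so the number of calls is not particular to the members. Scaling by total counts in place of TMM (a scaling factor from genes that change little) moved the median of all genes to -0.56 in this comparison. With it *fosab* (-0.79) and *egr3* (-1.12) were called lower as well, while *junba* was called higher (0.81). Among the related genes, *dusp1*, a phosphatase that switches off MAP kinases, was higher in mki67 barcodes (2.76 ± 0.30), and 13 of 18 effector genes were lower, *scg2b* (secretogranin, -2.12 ± 0.31) and *nptx1l* (-1.92 ± 0.30) among them.

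In radial glia the pattern was similar for *egr4* and *npas4a* and differed for *egr1*, *ier2b* and *nr4a1*. Of these, *ier2b* (0.27 ± 0.32) and *nr4a1* (-0.46 ± 0.31) were not called against neurons. *egr4* had a level of 0.10004, 0.771 and 1.76 in cx43 barcodes, against 1.73, 3.08 and 9.78 in neurons, and *npas4a* had 0.250, 0.664 and 2.17, against 1.29, 3.42 and 6.33. Both were lower in 11 of 11 batches, with log2 fold changes of -2.21 ± 0.32 and -1.61 ± 0.27 (edgeR adjusted p = 9.33e-08 and 1.42e-06). *junba* had 1.01, 2.86 and 7.38 in cx43 barcodes, against 0.449, 0.809 and 1.94 in neurons, and was higher in 11 of 11 batches (1.88 ± 0.23, adjusted p = 1.40e-09 by edgeR). *egr1* had 0.675, 1.39 and 3.45 in cx43 barcodes, against 0.551, 0.940 and 1.34 in neurons, and was higher in 10 of 11 batches (1.03 ± 0.25, edgeR adjusted p = 0.000534). In all, 4 of 8 members were called, where 54.3% of all genes tested were.

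The values in the cx43 class moved with how the class was drawn. Microglia markers were higher in it, with 27.4 summed UMIs of the 12 listed genes per 10000, against 1.61 in neurons, and all 6 tested markers were called. Without the 51 cx43 barcodes that held at least 4 of the 12 markers, and without erythrocyte barcodes, *egr1* (0.78) and *junba* (1.78) were still called higher and *egr3* (-0.89) and *nr4a1* (-0.84) were called lower in addition. With at least 2 *cx43* UMIs per barcode, *egr1* (0.33) was no longer called, *nr4a1* (-1.42) was called lower, and so were *fosab* (-0.87) and *ier2b* (-1.54), which had 0.31 ± 0.27 and 0.27 ± 0.32 in the main comparison. *egr4* (-3.59) and *npas4a* (-2.74) were lower still and *junba* (1.93) as high under that rule. The set of barcodes without microglia and erythrocytes was chosen after the data had been seen.

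Oligodendrocyte-lineage barcodes had 1 of 8 members called against neurons, *junba*, where 46.1% of all 9428 genes were. Its level was 2.23, 3.50 and 10.6 in olig2 or sox10 barcodes, against 0.449, 0.809 and 1.94 in neurons, and the ranges over the 11 batches did not overlap. The log2 fold change was 2.21 ± 0.24 (edgeR adjusted p = 2.97e-11). *egr4* had 0.250 in batch 2, a median of 2.69 and 18.1 in batch 5, against 1.73, 3.08 and 9.78 in neurons, and was not called (0.32 ± 0.28). *egr3* was at -1.05 ± 0.46 (edgeR adjusted p = 0.0559), with 0 UMIs in 4 of the 11 batches. Only 20 to 95 such barcodes were found per batch, and single batches moved the calls: without batch 5, *npas4a* (-0.74), *nr4a1* (-0.71) and *ier2b* (-1.14) were called lower, without batch 6 *npas4a* (-0.68) and *egr3* (-1.31) were, and without batch 8 or 11 *egr3* was (-1.19 and -1.15).

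Set directly against each other, the 3 classes of non-neuronal cells also differed. Of all 9428 genes, 40.9% were called between olig2 or sox10 and mki67 barcodes, 30.6% between olig2 or sox10 and cx43 barcodes and 34.1% between cx43 and mki67 barcodes. *egr4* was higher in olig2 or sox10 barcodes than in mki67 barcodes (2.44 ± 0.40) and in cx43 barcodes (2.54 ± 0.36), and *npas4a* likewise (1.39 ± 0.35 and 1.16 ± 0.31), each with an edgeR adjusted p of 0.00307 or lower. *ier2b* was higher in cx43 than in mki67 barcodes (2.26 ± 0.47, edgeR adjusted p = 0.000114). Its level in cx43 barcodes depended on how that class was drawn, with -1.54 against neurons where at least 2 *cx43* UMIs were asked for. After thinning to 1000 UMIs, at least 3 of the 8 members were found in 4.80% ± 6.11 of mki67, 14.5% ± 7.77 of cx43, 19.0% ± 14.95 of olig2 or sox10, 18.7% ± 8.60 of gad1b and 17.4% ± 7.53 of slc17a6 barcodes (SD, n = 8 batches for mki67 and 11 for the others).

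The next question was whether the members were found in the same neurons. Within each batch, class and decile of UMIs per barcode, the number of neurons with both genes of a pair was set against the number expected from both shares. Over the 28 pairs the ratio of observed to expected had a median of 1.16 and a range of 0.987 to 1.95, and 10 pairs were above 1 in every batch with a value. All 8 members were found in 29 neurons, where 1.05 were expected, and 5 or more in 2233 neurons, where 1152 were expected. At the other end, 3219 neurons (14.97%) held none of the 8, where 2040 were expected. Both ends exceeded their expectation in each of the 11 batches, and the middle of the range, 2 or 3 members, fell short of it. The same numbers were not computed for other genes, so the excess has no background here. Depth still varied among the barcodes of a decile, and its part in the excess was not tested.

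**Figure D3:**
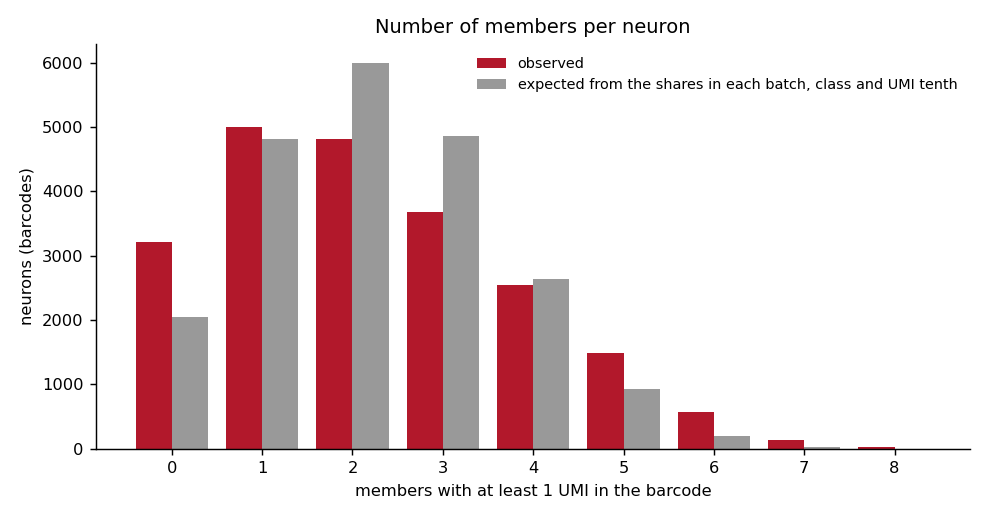
Number of neurons (vertical axis) with UMIs of 0 to 8 of the members (horizontal axis), observed and expected from the separate shares within batch, class and decile of UMIs per barcode. More neurons than expected held none of the genes or 5 or more of them, and fewer held 2 or 3.

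For a test over batches, neurons with a UMI of a member were compared with as many neurons without it, matched within batch, class and decile of UMIs per barcode, on summed counts with the batch as a block. Between 986 neurons a side (*egr3*, 7 batches) and 7306 (*egr4*, 11 batches) entered, and mean depth after matching was 3261 UMIs per barcode with *egr4* and 3262 without, the closest match, and 3519 with *junba* and 3485 without. Within single batches the medians could differ more, the most for *egr1* in batch 7, with 2366 UMIs with it and 2069 without. Of the 56 ordered pairs of members, 45 were called higher in the neurons with the other member and 0 lower, and 21 of 28 pairs were called in both directions. Without the batch term 5 were called. Each comparison has its own background. The share of all tested genes called higher was 3.39% with *fosab* (6 of 7 members), 4.79% with *egr1* (5), 10.1% with *egr3* (3), 2.91% with *egr4* (6), 11.2% with *npas4a* (7), 3.42% with *nr4a1* (5), 3.57% with *junba* (7) and 6.06% with *ier2b* (6).

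**Figure D4:**
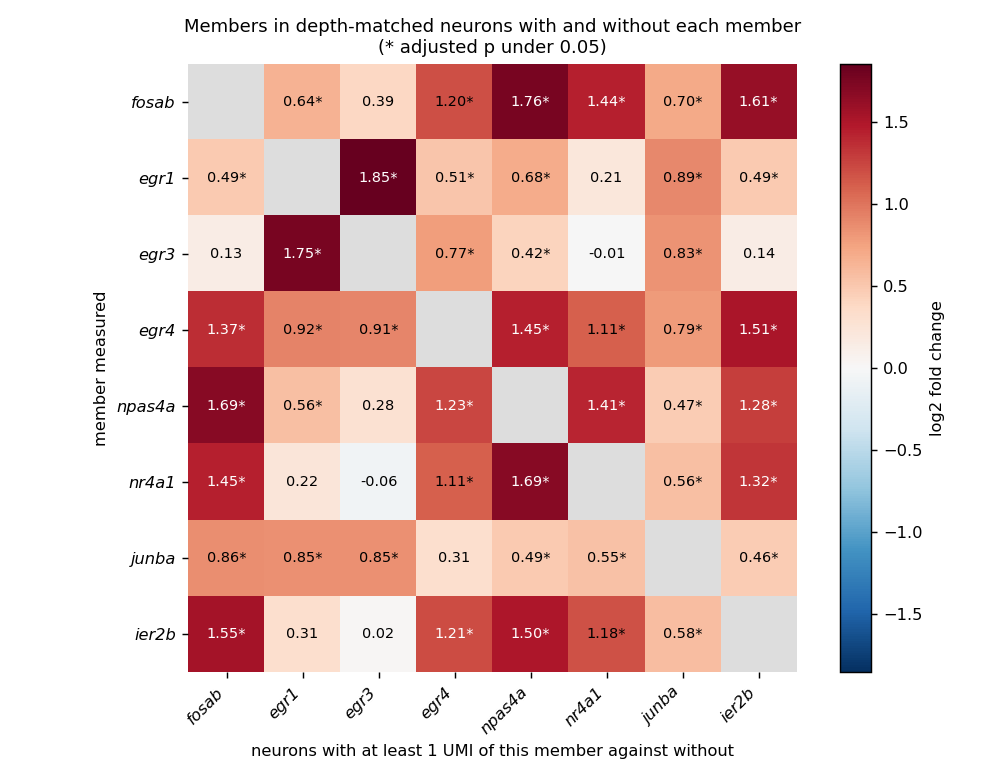
Log2 fold change of each member (rows) in neurons with a UMI of another member against matched neurons without it (columns), with marked cells past an adjusted p of 0.05 by edgeR's quasi-likelihood test. *fosab*, *egr4*, *npas4a*, *nr4a1* and *ier2b* form a block of values above 1, and *egr3* stands high with *egr1* and near 0 with *nr4a1* and *ier2b*.

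*fosab*, *egr4*, *npas4a*, *nr4a1* and *ier2b* rose together in all their pairs. *npas4a* was 1.69 ± 0.10 higher on the log2 scale in neurons with *fosab* than without, and *fosab* was 1.76 ± 0.12 higher in neurons with *npas4a* (edgeR adjusted p = 3.54e-15 and 8.85e-15). For *npas4a* and *nr4a1* the values were 1.69 ± 0.10 and 1.41 ± 0.11, and for *fosab* and *ier2b* 1.55 ± 0.11 and 1.61 ± 0.15. Counted as cells, *npas4a* and *nr4a1* met in 2788 neurons, where 1986 were expected, with ratios of 1.08, 1.45 and 2.45 at the lowest, median and highest over 11 batches. The lowest value among the 20 ordered pairs of these 5 genes was 1.11, for *egr4* and *nr4a1* in both directions.

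Over all batches, *egr3* was called with *egr1*, *junba* and *egr4* in both directions and not with the whole of that group. *egr1* was 1.85 ± 0.20 higher in neurons with *egr3*, and *egr3* was 1.75 ± 0.17 higher in neurons with *egr1* (edgeR adjusted p = 1.15e-06 and 2.96e-08). Both genes were found in 436 neurons, where 223 were expected, and the ratio was 0.839, 1.67 and 2.38 at the lowest, median and highest of 9 batches, above 1 in 7. *egr3* was also higher with *junba* (0.83 ± 0.15) and *egr4* (0.77 ± 0.15). With *nr4a1* (-0.01 ± 0.16), *ier2b* (0.14 ± 0.15) and *fosab* (0.13 ± 0.14) it was not called, and those 3 were not called in neurons with *egr3* either (-0.06 ± 0.19, 0.02 ± 0.15 and 0.39 ± 0.21). *egr1* and *nr4a1*, at 0.22 ± 0.10 and 0.21 ± 0.11, formed the remaining pair without a call in either direction. In batches 1 to 8 alone, the calls beside *egr3* changed in part. In neurons with *egr3*, *egr4* kept its call, *egr1* (1.19) and *junba* (0.15) were no longer called, and *fosab* (1.04) was called higher.

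Some of the weaker calls depended on single batches or on the tool. *egr3* in neurons with *npas4a* (0.42 ± 0.14, edgeR adjusted p = 0.0211) was not called without batch 10, 11 or 12 (0.43, 0.35 and 0.36), nor by DESeq2. *egr1* in neurons with *egr4* (0.51 ± 0.12) was not called without batch 11 (0.39), by DESeq2 or among all kept barcodes. *fosab* in neurons with *egr3* was called without batch 8 (0.46), and *ier2b* in neurons with *egr1* without batch 2 (0.32). The total of called ordered pairs stayed between 43 and 46 when each batch was left out in turn. It was 42 by DESeq2, 36 in batches 1 to 8 alone and 49 without the barcodes with the highest doublet scores.

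Other immediate early genes followed the members. *fosb*, *fosl2*, *jun*, *junbb* and *jund*, further AP-1 genes, *dusp5*, a MAP kinase phosphatase gene, and *bhlhe40*, a transcriptional repressor gene, were called higher with each of the 8 members, with median log2 fold changes of 1.27, 0.89, 0.47, 1.00, 0.65, 1.22 and 0.52. Of the 32 other genes of the study's list that were tested beside *fosab*, 21 were called higher and 0 lower. That list was drawn up for these libraries as genes to remove, and it is not independent evidence of the direction. *nr4a3*, a relative of *nr4a1*, was higher with 6 of the 8 members (median 1.03) and highest in neurons with *npas4a* (1.89 ± 0.14). *mycn* was lower with 4 members and higher with 1, and *egr2a*, *hsp90aa1.2*, *mcl1b*, *ppp1r15a* and *ubc* were called higher with none.

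Some of the listed effector genes, upstream factors and partners rose. Those named here were chosen after their values were seen, and the listed genes that did not rise are not counted. *scg2b*, a secretogranin gene, was higher with all 8 members (0.58 to 1.18), and *vgf*, a gene of secreted neuropeptides, with 5 (up to 1.40 with *npas4a*). *pcsk1*, a gene of the convertase that cuts neuropeptide precursors, was also higher with 5 and *plk2b*, a kinase gene, with 6 of 7. *nab1a*, whose product is a corepressor that Egr proteins bind, was higher with all 8 and most in neurons with *egr3* (1.94 ± 0.20). *crema*, a gene of the CREB family, was higher with 7 of the 8, among them *fosab* (1.13 ± 0.09). *camk2a*, a calcium-dependent kinase gene, stood out beside *egr3* (2.38 ± 0.16) and *egr1* (1.54 ± 0.14). Of the heat shock and chaperone genes, *hsp90ab1* was lower with 4 members and higher with 0, and *hspb1* and *bag3* were higher with 3 each.

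A gene could be listed as most like a member only with at least 100 UMIs in the neurons with it, the side where such genes are high. The ranking is a description and not a separate test. Taken were the genes called higher with the largest log2 fold change in the member's comparison. Beside *egr3* these were *cart3* (3.52 ± 0.50), a CART neuropeptide gene, *rgs5b* (3.03 ± 0.29), *penkb* (2.67 ± 0.18), *prkcda* (2.66 ± 0.35) and *rasd2* (2.57 ± 0.32). Beside *fosab* they were *ccka*, a cholecystokinin gene (2.37 ± 0.28), *jdp2b*, *ovca2*, *npy* and *tent5d*, and beside *egr4* *ccka* (1.63 ± 0.23), *rasd2*, *pyya*, *dusp2* and *ccl20a.3*. Beside *nr4a1* they were *pvalb5* (2.65 ± 0.53), *npy*, *fat2*, *nr4a3* and *galn*, and beside *npas4a* *cyt1l* (2.52 ± 0.42), *tcnbb*, *ovca2*, *npy* and *rasd2*.

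Beside *npas4a*, *ier2b*, *egr1* and *junba* the leading genes included genes known from other cell types, such as keratins of the skin. *cyt1l* (3.70 ± 0.53), *icn2*, *krt17*, *cyt1* and *tcnbb* led beside *ier2b*, and *krt17* (3.06 ± 0.49) and *tcnbb* beside *egr1*, before *npy* (2.72 ± 0.28), *cyt1l* and *slc1a6*. Epidermis markers summed to 0.898 UMIs per 10000 in neurons with *ier2b*, against 0.280 in matched neurons without it, to 0.840 with *egr1*, against 0.363 without, and to 0.460 with *npas4a*, against 0.431 without. Beside *junba* the leading genes were *fabp11a* (2.39 ± 0.43), *phlda2*, *tpm4a*, *abca4b* and *cldn5b*, with 7.70 summed UMIs of radial glia markers per 10000 with *junba*, against 5.71 without. Globin UMIs were fewer in the neurons with a member for all 8 of them, such as 2.05 per 10000 with *fosab*, against 7.88 without. The part of these markers in the results was not tested. Without microglia and erythrocyte barcodes 47 ordered pairs were called.

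Neurons with UMIs of at least 2 members were also compared with matched neurons with none, without the members' own counts. They are the ends of a count and not cell types, and 5003 neurons with exactly 1 member were left out. In 10 batches with 2752 neurons a side, 648 of 8663 genes were called (7.48%), 358 higher and 290 lower. *tent5d* (2.84 ± 0.20), *ovca2* (2.79 ± 0.34), *rasd2* (2.74 ± 0.30), *rasd1* (2.62 ± 0.26) and *jdp2b* (2.45 ± 0.19) had the largest changes among the genes that the same rule allowed. *rasd1* and *rasd2* encode small GTPases of the Ras family, and *jdp2b* a factor that dimerizes with Jun. *crema* was at 1.77 ± 0.17, *vgf* at 1.65 ± 0.14, *nr4a3* at 2.17 ± 0.20 and *hsp90ab1* at -0.41 ± 0.12, all called. Globin summed to 3.52 per 10000 with at least 2 members, against 21.4 with none. Leaving out batch 5 or 11 gave 425 and 416 called genes.

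Mean levels of the members were also set out by neuron type, as far as the marker genes that the study names for its types show it. Levels were compared between neurons with and without a UMI of each of 23 markers in the same batches, as a description. Of 184 pairs of a marker and a member, 39 had mean levels that differed by more than 1.5-fold in either direction. No such share was computed for other genes, so the count has no background. Some of the pairs rest on low *egr3* levels, such as 0.041 in *INSM2* neurons, below the 0.078 of the pooled erythrocyte barcodes. *npy* neurons (753 barcodes, 7 batches) had higher mean levels of all 8 members than neurons without *npy*. The ratios were 1.27 for *ier2b* (higher in 3 of 7 batches) to 2.11 for *junba* (6 of 7). *egr4* was at 8.32 ± 8.08 in *npy* neurons, against 4.53 ± 3.06 without (SD, n = 7 batches). With at least 2 *npy* UMIs (261 barcodes, 4 batches) the ratios were larger for all 8, over fewer batches, with *egr1* 3.73-fold higher. *egr4* was then at 17.1 ± 19.5, against 4.24 ± 2.61 without (SD, n = 4 batches), so its mean varied widely between batches. *onecut1* neurons (465 barcodes, 6 batches) had lower levels of all 8, with ratios of 0.495 for *egr1* to 0.765 for *npas4a*. With at least 2 UMIs of the marker (113 barcodes, 4 batches), *nr4a1* was 1.23-fold higher in *onecut1* neurons, in 4 of 4 batches. The other 7 had ratios of 0.316 for *egr1* to 0.940 for *npas4a*. *esrrb* neurons (951 barcodes, 6 batches) had ratios of 0.454 for *egr3* to 1.09 for *ier2b*. With at least 2 *esrrb* UMIs (337 barcodes, 4 batches) these were 0.203 for *egr3* to 0.561 for *egr4*, and all 8 members were higher in 0 of 4 batches. *uts1* neurons (215 barcodes, 4 batches) also had ratios above 1 for all 8 members, from 1.01 for *ier2b* to 2.30 for *egr4*. Their *egr4* level was 10.1 ± 12.6, against 4.40 ± 2.77 without (SD over batches). *npb* neurons (479 barcodes, 4 batches) held more *egr3*, at 0.697 ± 0.457, against 0.256 ± 0.113. *ccka* neurons (173 barcodes, 5 batches) had more *egr4* (1.84-fold) and *npas4a* (1.59-fold) and less *egr3* (0.267-fold). Their *egr3* level was 0.076 ± 0.105 (SD over batches), near the 0.078 of the pooled erythrocyte barcodes. Neurons with a marker were deeper than those without, with medians of 2954 and 2559.5 UMIs for *npy*, for every marker but *cort* (2626 and 2629.5 UMIs).

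The last comparison set larvae at 7 dpf against larvae at 6 dpf. *npas4a* in neurons was 2.03, 3.88 and 6.33 per 10000 at the lowest, median and highest of 7 batches at 7 dpf, against 1.29, 1.59, 3.42 and 3.42 in the 4 batches at 6 dpf. *ier2b* was 1.73, 3.49 and 4.24 at 7 dpf, against 1.62, 1.82, 1.91 and 1.97 at 6 dpf, and *egr1* was 0.750, 0.999 and 1.34 at 7 dpf, against 0.551, 0.690, 0.758 and 0.824 at 6 dpf. The batches of the 2 ages overlapped for all 8 members, and all 8 log2 fold changes were above 0, from 0.23 ± 0.34 for *junba* to 0.84 ± 0.32 for *npas4a*. The median of all genes tested was -0.02. The 8 members were measured in the same batches, so their directions are not independent.

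None of the members was called between the ages. With edgeR's quasi-likelihood test and the sequencing instrument as a covariate, 0 of 15873 genes (0%) passed an adjusted p of 0.05, 1120 (7.06%) had an unadjusted p under 0.05, and DESeq2 called 25, no member among them. *npas4a* (unadjusted p = 0.0168), *ier2b* (0.0184) and *egr1* (0.0344) were below 0.05 before adjustment in edgeR, and their adjusted p was 0.666, 0.666 and 0.682. The difference between gad1b and slc17a6 barcodes was not shown to differ between the ages either. In the edgeR test of that interaction 0 of 14518 genes (0%) were called and 293 (2.02%) had an unadjusted p under 0.05, among the members *egr4* alone (-0.66 ± 0.25, p = 0.0160). DESeq2 was not run on it.

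**Figure D5:**
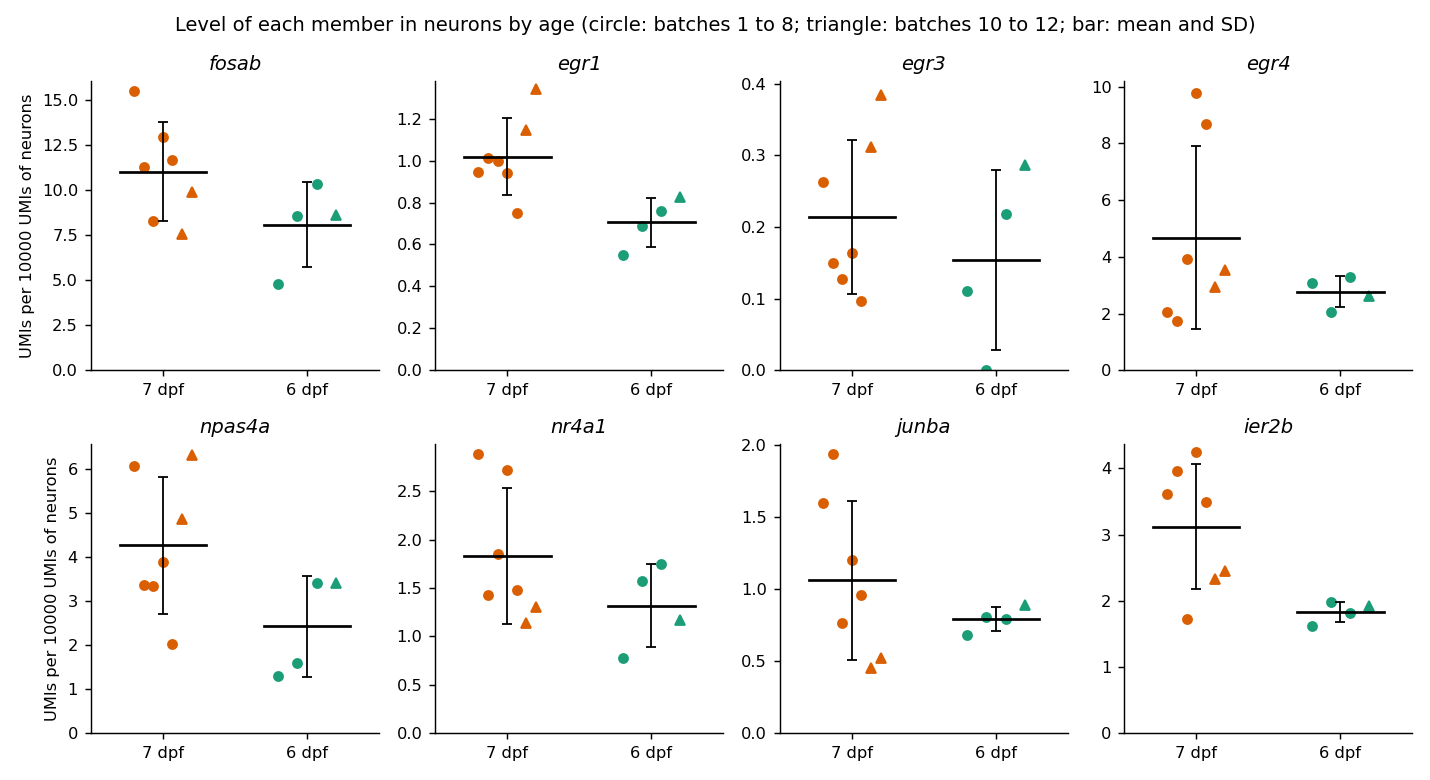
Level of each member in neurons (UMIs per 10000 UMIs) in the 7 batches at 7 dpf and the 4 batches at 6 dpf, 1 point per batch, with the mean and SD. Points of the 2 ages overlap for all 8 genes.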

How the data were processed

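Single-cell RNA sequencing (10x Genomics, 3′ end) of 12 libraries from 11 dissection batches was used. The authors aligned reads to GRCz11 and counted UMIs with Cell Ranger 7.1.0, and the deposited matrices hold raw UMI counts per gene and barcode. Replicates are batches.

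The limits for a kept barcode were 600 and 4000 genes, 7500 UMIs and a mitochondrial share of 10%. Doublets were kept, and removal of the 6100 barcodes with the highest Scrublet scores (scanpy 1.11.5) was an alternative. The study also removed cells with the habenula markers *gng8* and *kiss1* or the lens marker *crygm2d13*. Here 1158 kept barcodes held such markers, 453 of them among the neurons, and their removal was an alternative too. UMIs were summed per batch and class where at least 20 barcodes were present. Sums were tested with edgeR 4.0.16 (R 4.3.3; TMM, filterByExpr, quasi-likelihood test, Benjamini-Hochberg over all genes tested, threshold 0.05). Classes of a batch come from the same larvae and the same library, so the batch number was a block in every comparison of classes and of co-detection. Age was fitted with the sequencing instrument as a covariate, which was assigned by elimination from the study's methods. Levels are UMIs per 10000, and shares were also computed after thinning to 1000 UMIs. Erythrocyte barcodes held at least 10% globin UMIs. Microglia barcodes held at least 4 of 12 markers, a threshold set after the data had been seen.

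Named were all 8 members and up to 5 called genes per list by adjusted p. As most alike, up to 5 genes called higher per member were named by the largest log2 fold change. They had a gene symbol that is no clone name and at least 100 UMIs in the barcodes with the member. Genes given with their counts over the 8 member comparisons were chosen after their values were seen. The members and the lists were chosen with earlier results of these data known. Alternatives were DESeq2 1.42.0, total-count scaling, no filter on low counts, a minimum of 800 genes, at least 2 UMIs of a class marker, no batch block, no depth matching, another draw, all kept barcodes and each batch left out. Removal of microglia and erythrocyte barcodes was added after the data had been seen, and so was the restriction to batches 1 to 8 outside the comparison of ages. The scripts were tested on simulated data. Python 3.11.15, numpy 2.4.6, scipy 1.17.1, pandas 2.3.3 and matplotlib 3.10.9 were used.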

Additional observations from a re-analysis of the deposited data

Results flagged for a closer look

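*egr3* in mki67 barcodes stood apart in batch 10, at 0.226 UMIs per 10000, against a median of 0.0373 over the 8 batches. The ratio of observed to expected co-detection stood apart in batch 5 for *fosab* with *egr3* (1.56) and for *egr3* with *npas4a* (2.01), and in batch 2 for *egr3* with *egr4* (2.51). These are the values farthest from their neighbours among 31 groups of 4 to 10 batches, where chance marks about 1 group in 20. Only pairs with *egr3* had a ratio in 10 or fewer batches, and all other pairs had 11. A flagged ratio therefore had to involve *egr3*. The flagged ratios rest on few neurons: 11 observed against 7.03 expected, 6 against 2.98 and 4 against 1.60, in the order given.

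The members were also found in barcodes that the filters left out. They summed to 12.9 UMIs per 10000 in 967 barcodes with over 10% mitochondrial UMIs, to 18.1 in 6535 barcodes with over 4000 genes or 7500 UMIs and to 18.2 in 27206 barcodes with under 600 genes, against 19.97 in the kept barcodes.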

How the results depend on the processing

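Of 2272 values of members under an alternative, 2181 kept their side of the threshold, 53 lost a call and 36 gained one. A further 2 were counted as reversed, both with at least 2 *cx43* UMIs per barcode (*fosab* -0.87 and *ier2b* -1.54). A change of sign was counted as a reversal only where a call was present before or after it. The 2181 therefore include values that changed sign without a call, such as *egr1* in mki67 barcodes (-0.58 to 0.22 over the alternatives). The batch block came from the shared larvae and library, and without the replicate block 126 genes were called between gad1b and slc17a6 barcodes (510 with it), 3106 in cx43 barcodes (5115), 29 with at least 2 members (648) and 5 ordered pairs of members (45). No paired analysis was possible for age because the ages share no batch numbers. In batches 1 to 8 alone, 124 genes and 0 members were called between gad1b and slc17a6 barcodes, where *egr3* failed the filter on low counts. Without the filter, 7792 genes were called in cx43 barcodes, 35 between ages and 30 in the interaction, and 4 members in olig2 or sox10 barcodes. There, 2 members were called without microglia and erythrocyte barcodes and 2 with at least 2 UMIs of the marker. DESeq2 called 25 genes between ages, and 3 were called with batch 8 as 6 dpf. All kept barcodes gave 1688 genes with at least 2 members. The median share of neurons over the members was 14.4% after thinning and 23.3% as counted. Leaving out each batch gave 303 to 577 genes between gad1b and slc17a6 barcodes (303 without batch 11, 318 without batch 12), 4462 to 5125 in mki67, 4485 to 5027 in cx43 and 3977 to 4298 in olig2 or sox10 barcodes. It gave 1 to 4 members in olig2 or sox10 barcodes, 0 to 5 genes between ages (5 without batch 7), 0 to 3 in the interaction (3 without batch 11), 416 to 648 with at least 2 members and 43 to 46 ordered pairs. Under total counts in place of TMM the calls were 1325 higher and 4541 lower in mki67 barcodes (2546 and 2563 with TMM), 1619 and 1115 with *npas4a* (1338 and 1412), 403 and 270 with *nr4a1* (351 and 378), 196 and 81 with *junba* (305 and 61), 459 and 203 with *fosab* (400 and 276) and 428 and 196 with at least 2 members (358 and 290). The genes called with *egr1* fell to 23 in batches 1 to 8, against 581 in all batches, and those with *junba* to 230 under another draw, against 366. The cause of these changes was not tested.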

Other observations

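Microglia barcodes are no class of the comparisons above. After thinning to 1000 UMIs, *ier2b* was found in 30.9% of 175 microglia barcodes (exact binomial 95% interval 24.1 to 38.3%), *junba* in 29.7% (23.1 to 37.1%), *egr1* in 24.0% (17.9 to 31.0%), *nr4a1* in 16.0% (10.9 to 22.3%) and *egr3* in 7.43% (4.01 to 12.4%), against 16.4%, 6.52%, 8.08%, 10.5% and 2.19% of neurons. *fosab* was found in 42.3% of microglia barcodes (34.9 to 50.0%), against 40.5% of neurons. *egr4* was found in 5.71% (2.77 to 10.3%) and *npas4a* in 4.57% (1.99 to 8.81%) of microglia barcodes, against 21.6% and 24.3% of neurons. As counted, the shares of *nr4a1* were 48.0% of microglia barcodes (median depth 3670 UMIs) and 21.0% of neurons (2520 UMIs). The shares pool the batches, and the differences were not tested over batches.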
